A study of Mus musculus with 9 samples.

Results

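The genes described here are 10 members of the Bcl2 family, which set the threshold for death of a cell through its mitochondria. They were taken by symbol from the table of transcript levels, where all 10 were found among 24060 genes, and all 10 were among the 12115 genes tested because they passed a maximum above 1 TPM. TPM is a share of all transcripts, divided by transcript length and scaled to the same total in every sample, so that levels of different genes can be set side by side.

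RNA-seq was done on resting CD8 T cells of 3 clones, named Rop7-I, Rop7-II and Rop7-III, with 3 biological replicates of each and 9 samples in all. Each clone came from its own line of transnuclear mice, made by nuclear transfer from a CD8 T cell that bound the Rop7 epitope of Toxoplasma gondii on H-2Ld, so that every T cell precursor carries the rearranged receptor genes of that donor cell. The mice were homozygous for both receptor chains and backcrossed to BALB/c. Splenocytes of all 3 lines were held overnight with mouse IL-2 at 10 ng per ml and without antigen, then sorted as CD3+ CD8+ H-2Ld-Rop7+ cells to a purity of 90 to 95%, and 200 ng of RNA went into each library. A single line stood for each receptor, so that an effect of the receptor and any other difference between the lines cannot be told apart. The age and sex of the mice, and whether each replicate was a separate mouse, were not given in the sources used here. The comparison asks which transcripts differ at rest between clones whose receptors bind the same epitope.

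Bcl2 family proteins fall into classes that bind each other. Pro-survival members hold the effectors Bax and Bak in check at the outer mitochondrial membrane, while BH3-only members bind the pro-survival proteins or the effectors and so release the permeabilization of that membrane and the activation of caspases. In T cells the family is known for the deletion of self-reactive thymocytes, in which Bim has a leading part, and for the dependence of resting T cells on Bcl-2 and Mcl-1, with interleukin-7 as a main survival signal.

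The sorted cells carried the RNA of CD8 T cells. The summed level of 8 CD8 T cell markers lay between 6452 and 7208 TPM in the 9 samples, with Cd8b1 the most abundant at 2052 to 2386 TPM. RNA of other cells was present as well, and it differed between samples. The summed TPM of 14 B cell markers, of which Cd74 was the most abundant and none was at 0 throughout, was 397, 1042 and 772 in the Rop7-I samples in the order of replicates 1, 2 and 3. In Rop7-II it was 2434, 190 and 271, and in Rop7-III it was 150, 315 and 225. Replicate 1 of Rop7-II thus stood apart, and all 14 B cell markers were highest there. None of the B cell or myeloid markers passed in any pair of clones at an adjusted p under 0.01 in limma, and in Rop7-III against Rop7-II 0 and 9 of them were lower at an unadjusted p under 0.05.

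All 13 myeloid markers were also highest in replicate 1 of Rop7-II, where they summed to 858 TPM, against 137 to 345 TPM in the other 8 samples, and Cst3 led this list on average over the 9 samples, while Lyz2 led it in replicate 1 of Rop7-II with 485 TPM. The 7 erythroid markers, led on average by Hbb-b1 and with Hbb-bs listed at 0 in every sample, summed to 2439 TPM in replicate 2 of Rop7-I and to between 27.2 and 481 TPM elsewhere. The 5 CD4 T cell markers summed to between 18.7 and 39.3 TPM and were led by Tnfrsf4. The 6 NK cell markers summed to between 3.13 and 23.3 TPM and were led on average by Eomes, which CD8 T cells also express. Of these other lists and the CD8 list, Cd2, Cd8a, Lck, Eomes and Cd40lg passed in at least 1 pair of clones, and no erythroid marker did (3 were higher in Rop7-I against Rop7-II at an unadjusted p under 0.05). In bulk samples such as these, fewer cells of a type and less RNA per cell cannot be told apart.

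The levels of the 10 members spanned a wide range in these cells. Averaged over the 9 samples, Mcl1 was at 424 TPM and made up 52.2% of the summed TPM of the members, followed by Bax with 164 TPM and Bcl2l11, which encodes Bim, with 74.0 TPM. Bak1 at 39.4, Bbc3 at 34.9 and Bad at 27.2 TPM formed the middle of the order. Bid with 17.3 and Bcl2 with 16.6 TPM followed, and Bcl2l1 with 8.14 and Pmaip1 with 6.28 TPM came last. From Bak1 down, the ranges of neighbours in this order overlapped over the samples, except that every Bcl2 value was above every Bcl2l1 value. Read within samples, Bad was above Bid in every sample, while the order of the other overlapping neighbours changed between samples.

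Among the 3 clones, the members that differed were Bbc3, Bcl2l11 and Bcl2. These 3 of 10 members passed the F test across the clones at an adjusted p under 0.01, as did 14.1% of all tested genes. In Rop7-III against Rop7-II, 3 members were higher and 0 were lower, where 12.3% of all tested genes passed, 6.39% as higher and 5.89% as lower. A single member, Bbc3, was also at least 2-fold higher, against 0.966% of all genes. In Rop7-III against Rop7-I, 1 member was higher and 0 were lower, where 4.85% of all genes passed, 2.58% as higher and 2.28% as lower, and this member, again Bbc3, was at least 2-fold higher, against 0.611% of all genes. In Rop7-I against Rop7-II, 2 members were higher and 0 were lower, where 7.53% of all genes passed, 3.67% as higher and 3.85% as lower.

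The median log2 difference of the 10 members was 0.15, 0.09 and 0.01 in these 3 pairs, beside -0.02, -0.00 and -0.01 for all tested genes. At an unadjusted p under 0.05 in limma, 5, 2 and 3 members were higher and 0, 0 and 1 were lower in the first clone of each pair. Of all 12115 tested genes, 2170, 1781 and 1806 were higher and 2414, 1614 and 2078 were lower by the same limit. The 3 pairs share samples, since each clone enters 2 of them, and their values are given side by side and not as independent evidence.

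**Figure D1:**
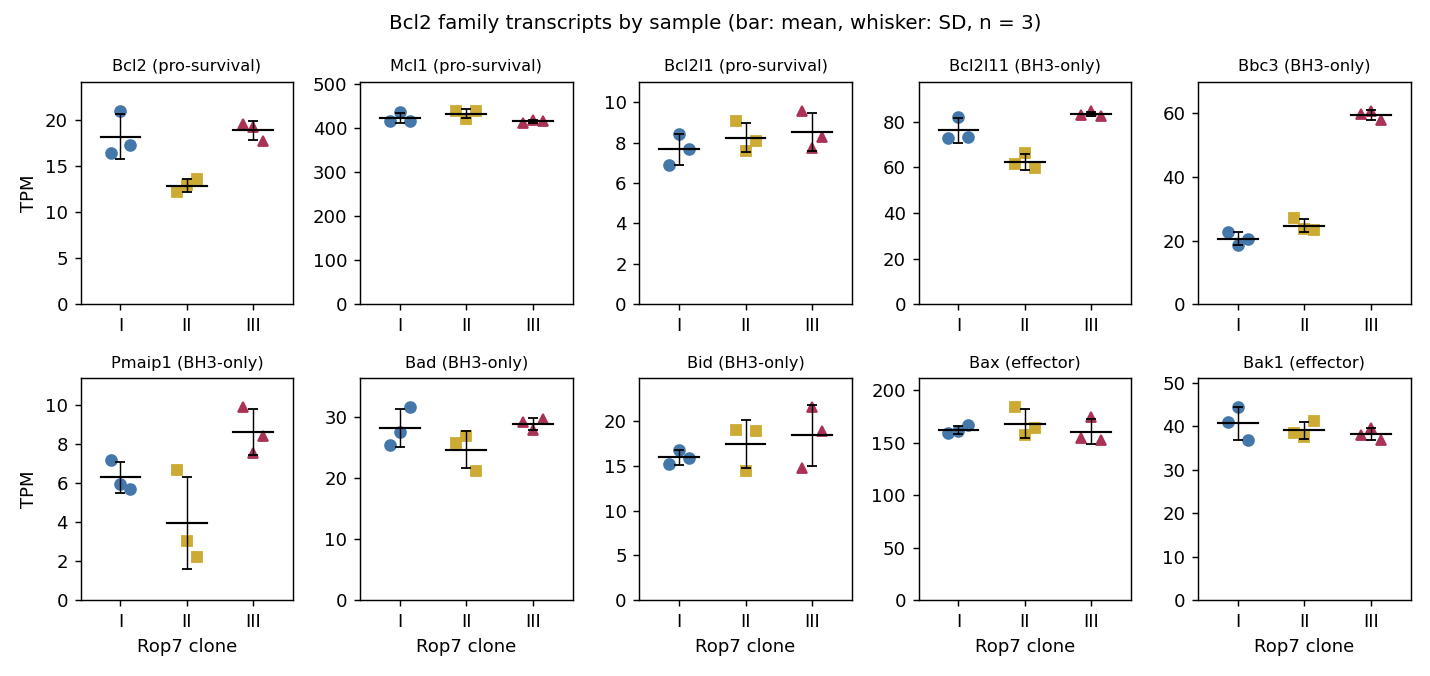
TPM of the 10 members (linear axes from 0) in each sample of the clones Rop7-I, Rop7-II and Rop7-III, with 1 point per sample, a bar at the mean and a whisker of 1 SD (n = 3). Bbc3 lies between 57.9 and 60.7 TPM in Rop7-III and at no more than 27.1 TPM in the other samples, Bcl2 is lowest in Rop7-II, and Mcl1 stays between 412 and 439 TPM.

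Bcl2, the pro-survival member for which the family is named, was read at 16.4, 20.9 and 17.3 TPM in the 3 replicates of Rop7-I. It was at 12.1, 12.9 and 13.6 TPM in those of Rop7-II and at 19.6, 19.3 and 17.7 TPM in Rop7-III. Every Rop7-II sample was below every sample of the other clones, whose ranges overlapped each other. The log2 difference on the log2(TPM + 1) scale was 0.52 (SE 0.09, adjusted p = 0.00335) for Rop7-III against Rop7-II and 0.46 (SE 0.09, adjusted p = 0.00828) for Rop7-I against Rop7-II. For Rop7-III against Rop7-I it was 0.05, with a 95% interval of -0.15 to 0.26 (adjusted p = 0.740).

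The Bcl2 calls were close to the threshold. For Rop7-III against Rop7-II the adjusted p was 0.0111 without replicate 1 and 0.0101 without replicate 2 of Rop7-II, and 0.0181 without replicate 1 and 0.0166 without replicate 2 of Rop7-III, while the log2 difference was between 0.48 and 0.56 under every setting tried. For Rop7-I against Rop7-II the call was lost without any of the 9 samples, with adjusted p between 0.0118 and 0.0229. The F test of Bcl2, with an adjusted p of 0.00460, was lost without replicate 1 (0.0162), 2 (0.0157) or 3 (0.0116) of Rop7-II and without replicate 1 (0.0159) or 2 (0.0159) of Rop7-III.

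Mcl1, a short-lived pro-survival protein on which T cells depend at most stages, had the most even transcript of the 10. It was at 418, 437 and 416 TPM in the Rop7-I samples, at 438, 421 and 439 TPM in those of Rop7-II and at 412, 419 and 417 TPM in Rop7-III. The highest of the 9 samples was 1.06 times the lowest, though every Rop7-II sample was just above every Rop7-III sample. The difference between Rop7-III and Rop7-II was -0.06 on the log2 scale with a 95% interval of -0.12 to 0.01 (adjusted p = 0.191). No pair of clones passed for Mcl1, and the bound farthest from 0 among its 3 intervals was a log2 difference of -0.12.

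Bcl2l1 encodes Bcl-xL, a pro-survival protein that is usually low in resting T cells and rises with costimulation. Its transcript was between 6.88 and 9.55 TPM, the clones overlapped in all 3 pairs, and the log2 differences were between -0.10 and 0.13 with adjusted p of 0.440 or more. Of the 3 pro-survival members, Bcl2 alone passed in any pair of clones.

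The largest difference among the members was that of a BH3-only gene, Bbc3. It encodes Puma, which binds all pro-survival members and is known as a target of p53 and of FOXO factors. Its transcript was read at 22.7, 18.6 and 20.5 TPM in the Rop7-I samples, at 27.1, 23.7 and 23.4 TPM in those of Rop7-II and at 59.9, 60.7 and 57.9 TPM in Rop7-III. All Rop7-III samples were far above the other 6, whose highest value was 27.1 TPM, and the Rop7-II samples were all above the Rop7-I samples.

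By the means, Bbc3 was 2.40 times as high in Rop7-III as in Rop7-II and 2.89 times as high as in Rop7-I. The log2 difference was 1.24 (SE 0.08, adjusted p = 1.37e-05) against Rop7-II and 1.49 (SE 0.08, adjusted p = 5.67e-06) against Rop7-I. Both calls held without any single sample, with adjusted p of at most 2.30e-04 and 1.45e-04. The smaller difference of Rop7-I against Rop7-II, of -0.26 (SE 0.08), did not pass (adjusted p = 0.0462).

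Bcl2l11 encodes Bim, the BH3-only protein best known from thymic deletion and from the death of T cells deprived of cytokine. It was at 72.9, 82.3 and 73.4 TPM in the Rop7-I samples, at 61.6, 66.3 and 59.5 TPM in those of Rop7-II and at 83.1, 84.6 and 82.7 TPM in Rop7-III. The clones were ordered from Rop7-II through Rop7-I to Rop7-III without overlap, though the highest Rop7-I sample lay just below the lowest of Rop7-III.

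The log2 difference of Bcl2l11 was 0.41 (SE 0.05, adjusted p = 8.00e-04) for Rop7-III against Rop7-II, and this call held without any single sample (adjusted p of at most 0.00520). For Rop7-I against Rop7-II it was 0.28 (SE 0.05, adjusted p = 0.00836). That call was kept only without replicate 2 of Rop7-II (adjusted p = 0.00713), and leaving out any of the other 8 samples gave adjusted p between 0.0157 and 0.0284. For Rop7-III against Rop7-I the difference was 0.13 with a 95% interval of 0.01 to 0.26, which did not pass (adjusted p = 0.152). Bcl2 and Bcl2l11, of opposite function, were thus both lowest in Rop7-II, and Bbc3 was lowest in Rop7-I.

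Promoter sequences of Bcl2l11 and Bbc3 are printed because these are the BH3-only members that passed, and because FOXO factors are known to act on both genes. Both genes have further promoter windows without the FOXO motif described below, and for each gene only the window that holds the motif is printed. The printed sequences are from RefSeq on GRCm38.p6, 5' to 3' on the plus strand on which both genes lie. Each gives the 250 bases before a transcription start. Windows of 300 bases, which add 50 bases after the start, were found for 9 of the 10 members, 15 windows in all. The 7 capitals mark the core motif of FOXO factors, GTAAACA, or TGTTTAC when it is read on the other strand. The Bcl2l11 stretch is chr2:128125788-128126037, directly before the annotated gene, with the motif 227 bases before the start. The Bbc3 stretch is chr7:16310011-16310260, which lies within the annotated gene but outside its annotated exons, with the motif 167 bases before this RefSeq start.
Bcl2l11: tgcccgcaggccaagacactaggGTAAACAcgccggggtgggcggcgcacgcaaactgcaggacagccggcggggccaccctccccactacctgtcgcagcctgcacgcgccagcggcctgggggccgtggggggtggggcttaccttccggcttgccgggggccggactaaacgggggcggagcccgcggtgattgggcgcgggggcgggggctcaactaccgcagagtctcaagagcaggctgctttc
Bbc3: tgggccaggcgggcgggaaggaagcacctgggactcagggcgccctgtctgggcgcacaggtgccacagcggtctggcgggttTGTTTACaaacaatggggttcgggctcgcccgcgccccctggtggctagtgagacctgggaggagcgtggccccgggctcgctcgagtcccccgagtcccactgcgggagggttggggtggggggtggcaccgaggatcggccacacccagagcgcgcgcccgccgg
No other window of the 9 members holds these letters. Of all 32851 windows 3.65% hold them, and of 9069 tested genes 3.15% have them in any of their windows. The E-box CACGTG, which is its own reverse complement, was in windows of Bax and Bbc3 (7.15% of all windows), and the p53 core motif was in that of Bax (8.36% of all windows). A match describes the sequence and shows no binding.

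Pmaip1 encodes Noxa, a BH3-only protein that binds Mcl-1. Its level was 7.19, 5.97 and 5.68 TPM in the Rop7-I samples, 6.64, 3.02 and 2.20 TPM in those of Rop7-II and 9.87, 7.52 and 8.42 TPM in Rop7-III. The Rop7-III samples were the highest, and in Rop7-II replicate 1 was more than double the other replicates. Rop7-III against Rop7-II gave a log2 difference of 1.05 (SE 0.27), at least 2-fold but not past the threshold (adjusted p = 0.0211).

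Replicate 1 of Rop7-II is also the sample with the most B cell and myeloid RNA. Without it the log2 difference of Pmaip1 between Rop7-III and Rop7-II was 1.41 (adjusted p = 3.82e-04), and with the B cell markers as a covariate it was 1.28 (adjusted p = 0.00327) and with array weights 1.22 (adjusted p = 0.00396). Rop7-I against Rop7-II went from 0.65 (adjusted p = 0.133) to 1.02 (adjusted p = 0.00318) without that replicate. Without replicate 3 of Rop7-II, by contrast, the difference was 0.39 (adjusted p = 0.342) in that pair and 0.79 (adjusted p = 0.0610) for Rop7-III against Rop7-II, and the highest adjusted p of the latter was 0.0782, without replicate 1 of Rop7-III. For all samples, Rop7-III against Rop7-I was 0.40 with a 95% interval of -0.21 to 1.01 (adjusted p = 0.380). Whether the RNA of other cells accounts for the Pmaip1 value in replicate 1 of Rop7-II was not tested. Bbc3 was 27.1 TPM in replicate 1 of Rop7-II against 23.4 and 23.7 TPM in the other two, and its difference between Rop7-III and Rop7-II was 1.30 without it.

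**Figure D2:**
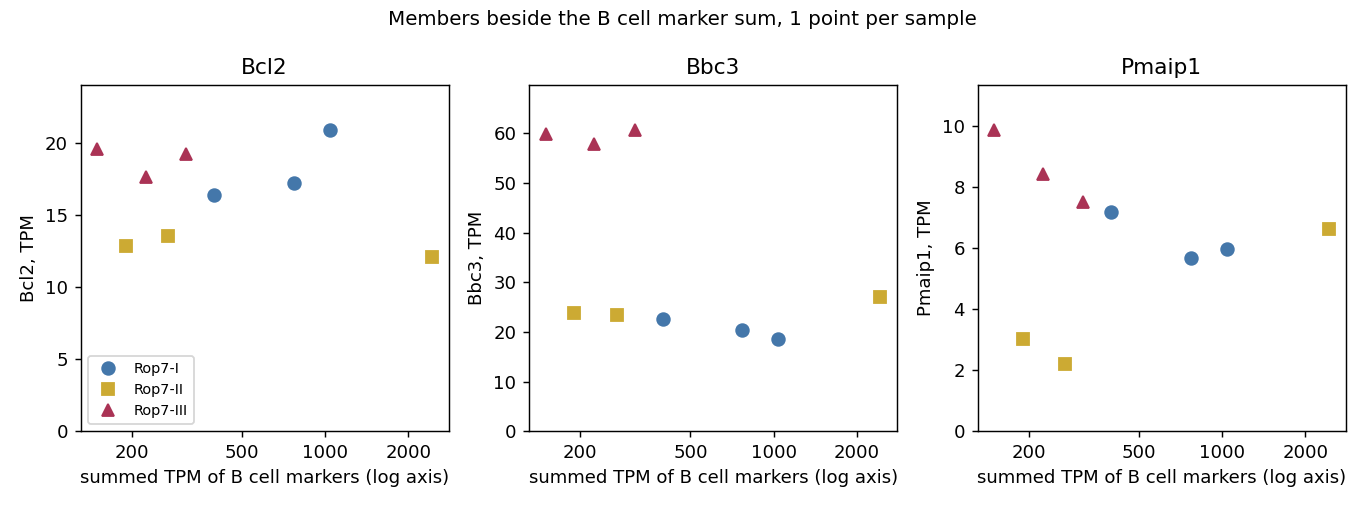
TPM of Bcl2, Bbc3 and Pmaip1 (linear axes from 0) against the summed TPM of 14 B cell markers (log axis), with 1 point per sample of Rop7-I, Rop7-II and Rop7-III. The Rop7-II sample at 2434 TPM of B cell markers has 6.64 TPM of Pmaip1, the other Rop7-II samples have 3.02 and 2.20 TPM, and Bbc3 separates Rop7-III from the rest at the marker levels seen.

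The remaining BH3-only members, Bad and Bid, did not pass in any pair of clones. Bad, which binds Bcl-2 and Bcl-xL and is held inactive by phosphorylation, was between 21.1 and 31.5 TPM, with every Rop7-III sample above every Rop7-II sample. Its largest log2 difference was 0.23 for Rop7-III against Rop7-II (95% interval 0.01 to 0.45, adjusted p = 0.120). Bid, which caspase-8 cleaves downstream of death receptors, was between 14.4 and 21.5 TPM and overlapped between all clones. Its largest log2 difference was 0.18 for Rop7-III against Rop7-I (95% interval -0.13 to 0.49, adjusted p = 0.436).

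The effectors Bax and Bak1, whose proteins form the pores in the outer mitochondrial membrane, gave differences close to 0. Bax was at 159, 161 and 167 TPM in the Rop7-I samples, at 184, 157 and 164 TPM in those of Rop7-II and at 155, 175 and 153 TPM in Rop7-III, with every pair of clones overlapping. Its 3 log2 differences were between -0.07 and -0.02, and its 95% intervals, of equal width, lay between -0.21 and 0.13, with adjusted p of 0.495 or more. Bak1 was between 36.8 and 44.4 TPM, with log2 differences between -0.09 and 0.05 and adjusted p of 0.445 or more.

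**Figure D3:**
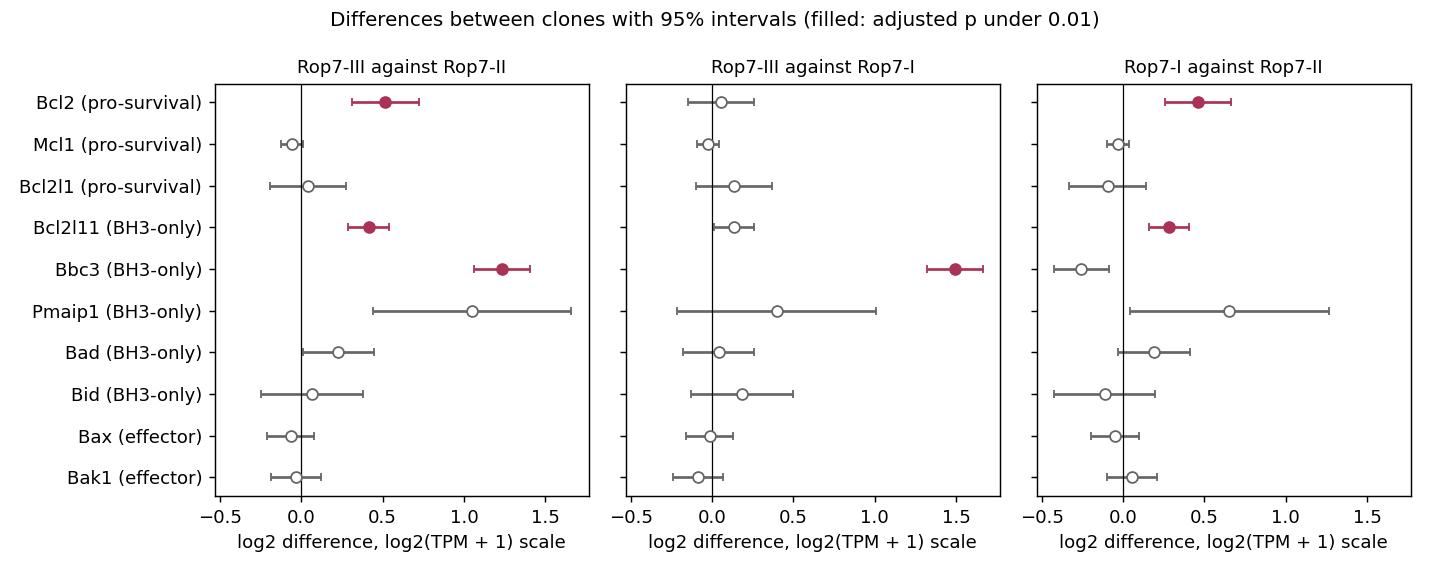
Log2 differences of the 10 members between clones on the log2(TPM + 1) scale, with 95% intervals from limma. Points are filled where the adjusted p is under 0.01, which holds for Bcl2, Bcl2l11 and Bbc3 in Rop7-III against Rop7-II, for Bbc3 in Rop7-III against Rop7-I, and for Bcl2 and Bcl2l11 in Rop7-I against Rop7-II.

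Summed over the classes, the clones differed in their BH3-only transcripts more than in the others, as a description with no test. The summed TPM of the 5 BH3-only members was 147 ± 3.91 in Rop7-I, 133 ± 7.53 in Rop7-II and 199 ± 2.85 in Rop7-III (mean ± SD, n = 3 each). Bbc3 made up 14.0%, 18.6% and 29.9% of that sum in the 3 clones, and Bcl2l11 51.7%, 47.0% and 42.0%. The summed TPM of the 3 pro-survival members, most of which is Mcl1, was 449 ± 14.4, 454 ± 10.8 and 443 ± 2.40.

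**Figure D4:**
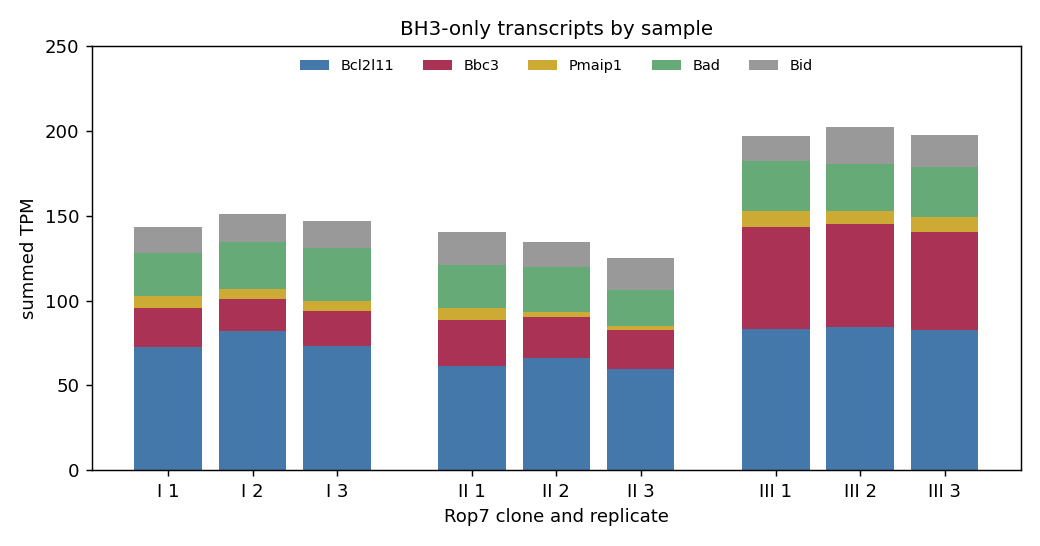
Summed TPM of the 5 BH3-only members in each sample, with stacked bars from 0 and clone and replicate on the horizontal axis. The bars reach 197 to 202 TPM in Rop7-III and 125 to 151 TPM in the other clones, with Bbc3 the segment that differs most.

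The ratio of the 7 pro-death members to the 3 pro-survival members, in summed TPM, was 0.779 ± 0.0145 in Rop7-I, 0.751 ± 0.0358 in Rop7-II and 0.897 ± 0.0315 in Rop7-III (SD, n = 3 each). The Rop7-III samples, from 0.875 to 0.933, were above all others, of which the highest was 0.794. The summed TPM of the pro-death members was 350, 341 and 398 on average in Rop7-I, Rop7-II and Rop7-III. Bbc3 is part of that sum, with means of 20.6, 24.7 and 59.5 TPM. The separation by this ratio is therefore not apart from the difference in Bbc3, and the ratio without Bbc3 was not computed. The ratio of Bbc3 to Bcl2 was 1.38, 0.891 and 1.19 in Rop7-I, 2.23, 1.84 and 1.73 in Rop7-II and 3.06, 3.15 and 3.27 in Rop7-III, so that it separated all 3 clones. Bbc3 alone also did so, in the same order. The ratio of Bcl2l11 to Bcl2, by contrast, was 4.21 ± 0.261, 4.87 ± 0.419 and 4.44 ± 0.217, and its ranges overlapped between Rop7-II and both other clones. These ratios are of transcripts and not of proteins.

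Neither Bbc3 nor Bcl2l11 overlaps another annotated gene. On GRCm38, Bbc3 lies at chr7:16308393-16318205 and Bcl2l11 at chr2:128126038-128162547, both on the plus strand. Of 22 tested genes within 1 Mb of Bbc3, 4 passed the F test, of which 0 passed in Rop7-III against Rop7-II and Prkd2 passed in Rop7-III against Rop7-I, with a log2 difference of 0.17 (adjusted p = 0.00765). Of 23 tested genes near Bcl2l11, 3 passed. Dusp2 was lower in Rop7-III against Rop7-II by a log2 difference of -0.38 (adjusted p = 6.08e-04), opposite to Bcl2l11, and Fahd2a passed in Rop7-III against Rop7-I alone, with 0.40 (adjusted p = 0.00727). The nearest of the 3, Acoxl, ends 2164 bases before Bcl2l11 on the same strand and was at 1.33, 1.83 and 1.32 TPM in the Rop7-I samples, 0.60, 0.90 and 0.56 TPM in those of Rop7-II and 2.75, 2.41 and 1.92 TPM in Rop7-III. The order of the clones for Acoxl was that of Bcl2l11, with a log2 difference of 0.99 (SE 0.16, adjusted p = 0.00235) for Rop7-III against Rop7-II, which was lost without replicate 1 (adjusted p = 0.0132) or replicate 2 (adjusted p = 0.0120) of Rop7-III.

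Bcl2 lies at chr1:106538178-106714274 on the minus strand, and 2 of the 5 tested genes within 1 Mb of it passed the F test, Phlpp1 and Zcchc2. In Rop7-III against Rop7-II their log2 differences were 0.76 (SE 0.09, adjusted p = 4.36e-04) and 0.39 (SE 0.06, adjusted p = 0.00132), the direction of Bcl2. The share over all tested genes was 14.1%. Reads of Bak1, Bad and Bid can be shared with the overlapping genes Ggnbp1, Gpr137 and Bcl2l13, since the library did not keep the strand. Bcl2 overlaps the annotated D630008O14Rik and Gm37053, and Bax overlaps Gm45808, none of which is in the table of levels, so that their reads are uncertain to that extent. What these neighbours have to do with the members was not tested.

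Of 16 other Bcl2 family genes, 12 were tested, and 0 passed in either direction in Rop7-III against Rop7-II, 1 was higher in Rop7-III than in Rop7-I, and 0 passed in Rop7-I against Rop7-II (limma), where 12.3%, 4.85% and 7.53% of all tested genes passed. At an unadjusted p under 0.05 the numbers higher and lower were 1 and 3, 2 and 1, and 0 and 2. The median log2 differences were -0.04, -0.00 and -0.02. Bok and Bcl2l10 were listed at 0 in every sample, and Hrk and Bcl2l14 reached at most 0.03 and 0.13 TPM.

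The gene that passed was Bcl2l2, which encodes the pro-survival protein Bcl-w. It was low, with means of 0.460 ± 0.210, 1.11 ± 0.462 and 2.62 ± 0.208 TPM in the Rop7-I samples, Rop7-II and Rop7-III (SD, n = 3 each), and the log2 difference of Rop7-III against Rop7-I was 1.32 (SE 0.19, adjusted p = 0.00266). This call was lost without replicate 1 (adjusted p = 0.0149) or 2 (0.0132) of Rop7-I and without replicate 1 (0.0148), 2 (0.0165) or 3 (0.0113) of Rop7-III. Bcl2l2 lies at chr14:54883377-54888234, 0.659 Mb from the constant region of the T cell receptor alpha chain, and 12 of 48 tested genes within 1 Mb of it passed the F test, beside 14.1% of all tested genes. It overlaps the annotated gene Gm20521, so that its reads are uncertain.

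Bmf, a BH3-only gene, and Bcl2a1b, a pro-survival gene of B and T cells, were highest in replicate 1 of Rop7-II, at 10.4 and 18.1 TPM. The other Rop7-II samples had 3.28 and 4.64 TPM of Bmf and 3.84 and 4.42 TPM of Bcl2a1b. Every Rop7-III value of Bmf, from 2.01 to 2.71 TPM, was below every value of the other clones. Neither gene passed in any pair, and reads of the Bcl2a1 copies, which are near-identical, are uncertain. The mitophagy receptor Bnip3l was the most abundant of the list, with means of 183, 184 and 192 TPM in the 3 clones.

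Downstream of the mitochondria, the 17 genes of the apoptosome, the caspases and their inhibitors were all tested. In Rop7-III against Rop7-II 0 passed in either direction, with 5 higher and 4 lower at an unadjusted p under 0.05 in limma, where 12.3% of all tested genes passed. Their median log2 differences were -0.06, -0.03 and -0.00. Casp8, the initiator caspase of death receptors, was lower in Rop7-I against Rop7-II, with a log2 difference of -0.26 (adjusted p = 0.00538). That call was lost without replicate 1 or 3 of Rop7-I, 2 or 3 of Rop7-II, or 1 or 2 of Rop7-III, with adjusted p up to 0.0239. Apaf1 and Casp9, which form the apoptosome, did not pass in any pair.

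Of 10 tested death receptor genes, 0 passed in either pair with Rop7-III, where the unadjusted numbers higher and lower were 3 and 3 against Rop7-II and 0 and 3 against Rop7-I. In Rop7-I against Rop7-II, 1 was higher and 0 were lower (5 and 2 unadjusted), namely Cflar, an inhibitor of caspase-8, with a log2 difference of 0.25 (adjusted p = 0.00455). The Cflar call was lost without any replicate of Rop7-I, replicate 1 or 2 of Rop7-II or replicate 1 of Rop7-III, with adjusted p up to 0.0201. The shares of all tested genes that passed were 12.3%, 4.85% and 7.53%, and the median log2 differences of this list were 0.08, -0.03 and 0.16. Fas was at 53.5, 47.8 and 52.6 TPM on average in the 3 clones, and Fasl reached at most 0.37 TPM.

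Since Bbc3 is a known target of p53, the list of p53 and its targets was read beside it. Of 12 tested genes, 2 were higher and 1 lower in Rop7-III against Rop7-II, 1 was higher and 0 lower in Rop7-III against Rop7-I (1 lower unadjusted), and 1 was higher and 0 lower in Rop7-I against Rop7-II (0 lower unadjusted). Of all tested genes 12.3%, 4.85% and 7.53% passed in these pairs. The median log2 differences were 0.07, 0.04 and 0.09. Trp53inp1 and Ei24 were the higher genes of Rop7-III against Rop7-II, by 0.29 and 0.42 on the log2 scale (adjusted p = 3.78e-04 and 4.76e-04), and both held without any single sample, while Mdm4 was the gene lower there. The Mdm4 call was lost without replicate 1 of Rop7-I, 1 or 3 of Rop7-II, or 1 or 2 of Rop7-III (adjusted p up to 0.0241). Ei24 was also the gene that passed against Rop7-I, a call lost without any replicate of either clone (adjusted p up to 0.0209), and Trp53inp1 was the gene that passed in Rop7-I against Rop7-II. Trp53 itself, at means of 167, 163 and 171 TPM, and Mdm2, at 93.9, 97.5 and 96.5 TPM, did not pass in any pair. Cdkn1a, a classical p53 target, stayed at means of 0.817, 2.03 and 0.397 TPM, with its highest value of 5.17 TPM in replicate 1 of Rop7-II.

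The list of FOXO factors and their targets, which FOXO proteins are known to drive in resting T cells, held 15 tested genes. Among those that passed in Rop7-III against Rop7-II, Il7r, Ccng2 and Cdkn1b were higher and Ccr7 was lower. In Rop7-III against Rop7-I 3 were higher (Il7r, Klf2 and Foxo1) and 1 lower (Bcl6), beside 4.85% of all tested genes, and among those that passed in Rop7-I against Rop7-II, Il7r, Ccng2, Bcl6 and Txnip were higher and Klf2 and Ccr7 were lower. The median log2 differences were 0.11, 0.08 and 0.07. Calls close to the threshold were those of Ccr7 and Ccng2 in Rop7-III against Rop7-II (adjusted p up to 0.0286 and 0.0145 when a sample was left out), Foxo1 in Rop7-III against Rop7-I (up to 0.0358), and Bcl6 and Txnip in Rop7-I against Rop7-II (up to 0.0196 and 0.0110). Ccr7 was kept without replicate 1 of Rop7-II alone, Ccng2 was lost without replicate 1 or 3 of Rop7-III, and Foxo1 without any replicate of Rop7-I or Rop7-III. Bcl6 was lost without replicate 1 or 2 of Rop7-I or 2 or 3 of Rop7-II, and Txnip without replicate 2 of Rop7-I.

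Il7r encodes the receptor chain for interleukin-7, the cytokine known to maintain Bcl-2 in resting T cells. It was at 473, 525 and 533 TPM in the Rop7-I samples, at 300.3, 318 and 333 TPM in those of Rop7-II and at 747, 730.0 and 771 TPM in Rop7-III, with no overlap between any clones. The log2 difference was 1.24 (SE 0.05, adjusted p = 1.26e-06) for Rop7-III against Rop7-II, 0.55 (SE 0.05, adjusted p = 2.64e-04) for Rop7-III against Rop7-I and 0.69 (SE 0.05, adjusted p = 4.85e-05) for Rop7-I against Rop7-II, and these calls held without any single sample. The order of the clones for Il7r was that for Bcl2l11.

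Klf2, which keeps T cells resting and in circulation, followed another order, with means of 817 ± 48.6, 1311 ± 91.8 and 1166 ± 84.4 TPM in the Rop7-I samples, Rop7-II and Rop7-III (SD, n = 3 each). Its log2 difference was -0.68 (SE 0.07, adjusted p = 2.62e-04) for Rop7-I against Rop7-II. For Rop7-III against Rop7-I it was 0.51 (SE 0.07, adjusted p = 0.00162), lost without replicate 1 of Rop7-I (adjusted p = 0.0124) and without replicate 2 (0.0117) or 3 (0.0102) of Rop7-III. Bcl6, a transcriptional repressor, was highest in Rop7-I at 28.3 ± 4.08 TPM (SD, n = 3), with a range of 14.1 to 17.7 TPM in the Rop7-II samples and of 10.4 to 13.4 TPM in Rop7-III, and its log2 difference for Rop7-III against Rop7-I was -1.17 (SE 0.13, adjusted p = 5.64e-04).

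Among 17 genes of survival cytokine receptors and their signals, 3 were higher and 1 lower in Rop7-III against Rop7-II, 1 was higher and 1 lower in Rop7-III against Rop7-I, and 3 were higher and 0 lower in Rop7-I against Rop7-II (2 lower unadjusted), beside 12.3%, 4.85% and 7.53% of all tested genes. The median log2 differences were 0.04, -0.01 and 0.04. Besides Il7r, Il4ra was lower in Rop7-II, at 88.8 ± 12.8 TPM, than in Rop7-I at 177 ± 17.7 TPM and Rop7-III at 177 ± 6.74 TPM (SD, n = 3 each). Its log2 difference was 1.00 (SE 0.10, adjusted p = 1.91e-04) for Rop7-III against Rop7-II and 0.99 (SE 0.10, adjusted p = 3.26e-04) for Rop7-I against Rop7-II.

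Socs3, an inhibitor of cytokine signals, was lower in Rop7-III at 62.5 to 78.8 TPM than in Rop7-I at 119 to 184 TPM and Rop7-II at 147 to 168 TPM. Its log2 difference was -1.14 (SE 0.15, adjusted p = 6.39e-04) for Rop7-III against Rop7-II and -0.995 (SE 0.15, adjusted p = 0.00278) for Rop7-III against Rop7-I. The latter call was lost without replicate 2 of Rop7-I (adjusted p = 0.0109) and without replicate 1 (0.0129) or 3 (0.0153) of Rop7-III. Pim2, a survival kinase, was higher in Rop7-I against Rop7-II by a log2 difference of 0.90 (SE 0.14, adjusted p = 0.00280), lost without replicate 2 of Rop7-I (0.0115) or replicate 3 of Rop7-II (0.0116). Socs1, of the same family as Socs3, was higher in Rop7-III against Rop7-II by 0.83 (SE 0.16, adjusted p = 0.00495). The Socs1 call was kept only without replicate 2 of Rop7-I or replicate 3 of Rop7-II, with adjusted p up to 0.0220 otherwise. The receptor chains Il2rb and Il2rg, which take up the IL-2 given to all samples, did not pass in any pair.

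Among 11 genes whose proteins set the stability or binding of Mcl-1 and Bim, 1 was higher and 2 were lower in Rop7-III against Rop7-II, 0 were higher and 1 was lower in Rop7-III against Rop7-I (3 and 2 unadjusted), and 1 was higher and 0 were lower in Rop7-I against Rop7-II (1 and 3 unadjusted), where 12.3%, 4.85% and 7.53% of all tested genes passed. The median log2 differences were -0.02, 0.01 and -0.02. Fbxw7, a subunit of a ubiquitin ligase that targets Mcl-1, was the higher gene of Rop7-III against Rop7-II, by 0.34 (SE 0.05, adjusted p = 8.92e-04). Dynll1 and Dynll2, dynein light chains that bind Bim and Bmf, were lower there by log2 differences of -0.37 and -0.31 (adjusted p = 0.00346 and 0.00344). Dynll1 was lost without replicate 1 or 2 of Rop7-II or 1 or 3 of Rop7-III (up to 0.0185), and Dynll2 without replicate 3 of Rop7-II or any replicate of Rop7-III (up to 0.0157). Dynll2 was also the gene lower in the pair with Rop7-I, lost without replicate 1 of Rop7-I or 2 or 3 of Rop7-III (up to 0.0117), and Fbxw7 the gene higher in Rop7-I against Rop7-II, kept only without replicate 3 of Rop7-III (up to 0.0270).

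Over the 9 samples, the tested genes whose log2(TPM + 1) was most like that of Bbc3 were Pltp (Pearson r = 0.99), Sall2 (r = 0.98) and Acin1 (r = 0.98), and the most opposite was Gcm1 (r = -0.99). Pltp had means of 6.76, 7.63 and 21.8 TPM and Gcm1 of 6.91, 4.84 and 0.133 TPM in the Rop7-I samples, Rop7-II and Rop7-III. For Bcl2l11 the most alike were Zkscan17, Rps6ka5 and Pbxip1 (r = 0.98 each), and the most opposite was Mad1l1 (r = -0.99). Rps6ka5 had means of 14.3, 9.73 and 17.1 TPM and Mad1l1 of 30.1, 45.1 and 26.3 TPM in the same order. The 9 samples share their clones, so that these r values mostly restate the differences between 3 clones and are given with no test.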

How the data were processed

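Gene-level TPM values were computed by the authors with RSEM 1.2.11 against RefSeq genes of the mm10 build from non-strand-specific single-end reads, per the study's methods, and deposited for 24060 genes and 9 samples. The submitters' processing notes also name DESeq2 1.8.1, which tests counts and was not applied to TPM here. TPM keeps no depth, so no interval for counting error was computed. Clones were taken from the labels.

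Genes with a maximum TPM above 1 were tested (12115) as log2(TPM + 1) with limma 3.58.1 in R 4.3.3, in 1 fit of all 9 samples, the spread being moderated along a trend with the mean level. P values were adjusted by Benjamini and Hochberg over all tested genes of a pair, or over the F test, with a limit of 0.01. Fold changes on this scale understate those of low genes. The fit was tested on simulated data.

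The members and lists were chosen with earlier results of these data known. Of other lists, genes that passed the F test with a 1.5-fold difference in a pair were named, at most 5 a list. For Bbc3 and Bcl2l11, the members with the smallest F adjusted p, the 3 most alike genes and the most opposite were named. Other list genes, neighbours of members, sums over the BH3-only members and the ratio of Bcl2l11 to Bcl2 were chosen after their values were seen. Positions are from GENCODE on GRCm38. Alternatives were other pseudocounts, filters, scalings and weights, a covariate, a block, only the clones compared, other thresholds, and each sample left out.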

Additional observations from a re-analysis of the deposited data

How the results depend on the processing

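Bbc3 and Bcl2l11 passed in Rop7-III against Rop7-II, and Bbc3 in Rop7-III against Rop7-I, under every setting of the fit that was tried. The log2 difference of Bbc3 lay between 1.199 and 1.30 in the former pair and between 1.43 and 1.56 in the latter. With a fold of at least 2 in addition, the members that passed in Rop7-III against Rop7-II fell to 1. In Rop7-I against Rop7-II, where 2 members passed, none kept its call in every setting. The number was 0 without a filter on low values (more genes tested), with a shift to a common median, without the trend of the spread, with array weights, with only the clones compared (fewer samples) and with a fold of at least 2. It was 1 with quantile normalization and 1 with the B cell covariate, and 0 to 1 when each sample was left out in turn (fewer samples). Where no construction is named, the cause was not tested.

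Some differences that did not pass changed sign, all of them near 0. When each sample was left out, Bcl2l1 ranged from -0.038 to 0.10, Bid from -0.058 to 0.21 and Bak1 from -0.060 to 0.0060 in Rop7-III against Rop7-II. In Rop7-III against Rop7-I, Bcl2 ranged from -0.013 to 0.15, Bad from -0.029 to 0.12 and Bax from -0.076 to 0.020, and with the B cell covariate Bax was 0.075. In Rop7-I against Rop7-II, Bak1 ranged from -0.0080 to 0.12 and Bax from -0.097 to 0.015.

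The values gave no sign that the replicate numbers pair the samples, though they cannot exclude it. Deviations of samples with the same number correlated at -0.39 to 0.11 (median -0.05), against -0.18 to 0.32 for other numbers. With the replicate number as a block, 3, 1 and 1 members passed in the 3 pairs, the call lost being that of Bcl2 in Rop7-I against Rop7-II (adjusted p = 0.0154). Over all tested genes the block gave 1105, 373 and 613 calls, beside 1488, 588 and 912 without it. The exact depth of each sample cannot be read from TPM values, so no counting error is given, also for low genes such as Pmaip1, Bcl2l1 and Bcl2l2.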
